A study of Homo sapiens with 24 samples.

Results

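The comparison described here is the effect of a BOP1 siRNA pool on polyadenylated RNA in mock-treated A549 cells at 8 h, a line established from a human lung adenocarcinoma. It used 6 of the 24 libraries of the series, 3 with the BOP1 siRNA (siBOP1) and 3 with a control siRNA against firefly luciferase (siFLuc), an insect gene. All cells were transfected for 48 h before the mock medium or interferon beta was added, and the 18 other libraries hold the same siRNAs with interferon beta at 1000 U/mL or at 12 h. The 14356 genes with at least 1 TPM (a share of a fixed total, scaled for transcript length) in at least 3 of the 6 libraries were taken, of 60609 in the deposited table. The libraries carry the column numbers 1, 2 and 4 and are named by them below. The labels do not say that they came from separate cultures, so the p-values measure the spread between these libraries, which may be technical. The siRNA lowers a transcript for a time and in part, and deletes nothing.

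BOP1, PES1 and WDR12 form the PeBoW complex of the nucleolus, which is needed to process the precursor of the large ribosomal RNAs and to build the 60S subunit. Cells whose ribosome assembly is disturbed can stabilise the p53 protein through free ribosomal proteins, and they can alter the output of ribosome and nucleolar genes. An siRNA guides the Argonaute protein to the transcript it was designed for, and it can also lower other transcripts whose 3′ untranslated region (UTR) pairs with the seed, the first bases of the guide.

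With siBOP1, 268 genes were higher and 109 were lower than with siFLuc (limma on log2(TPM + 1), Benjamini-Hochberg adjusted p under 0.05 over 14356 genes), which is 1.87% and 0.759% of the genes tested, or 2.63% in all. The falls were led by BOP1 itself, the mitochondrial protein gene CHCHD5, the DNA repair gene XRCC6, the amino acid transporter gene SLC7A5, the uracil glycosylase gene UNG and the ribosomal protein gene RPSA. The 12 largest rises included the nucleotide hydrolase gene HINT1, the tight junction gene CLDN2, the membrane protein gene TM4SF20 and the cytokine gene IL11. Most changes were small. Only 22 of the higher and 10 of the lower genes had a log2 fold change of 1 or more in size, and 118 of the 377 called genes changed by less than 0.5. The median change was 0.61 among the higher genes and -0.60 among the lower genes, against 0.03 over all genes, whose middle 90% lay between -0.37 and 0.47. Values of the 2 groups did not overlap for any of the 377 called genes, and 21.0% of all genes tested had groups that did not overlap.

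The size of both lists depended on the model and on single libraries, while most of the leading genes did not. With a block for the column number within each time, 991 genes were higher and 444 lower (6.90% and 3.09%, or 10.0% in all), among them all 377. Calls and adjusted p-values in this text are without the block unless it or another fit is named. With only the 6 libraries in the fit 65 were higher and 49 lower (0.453% and 0.341%, or 0.794% in all). With the libraries numbered 1 and 2 alone 301 were higher and 167 lower (2.10% and 1.16%, or 3.26% in all). Leaving out the siBOP1 library 1, 2 or 4 gave 117, 135 and 94 higher genes and 71, 69 and 53 lower genes. Leaving out the siFLuc library 1, 2 or 4 gave 208, 116 and 128 higher genes and 69, 68 and 61 lower genes. In all 6 of these fits 61 of the higher and 42 of the lower genes were called. The share of calls that were higher was 71.1%, and it was 57.9% after median-of-ratios rescaling (220 higher, 160 lower), 56.9% after quantile normalization (265 and 201) and 77.5% after rescaling without the mitochondrially encoded genes (368 and 107).

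**Figure D1:**
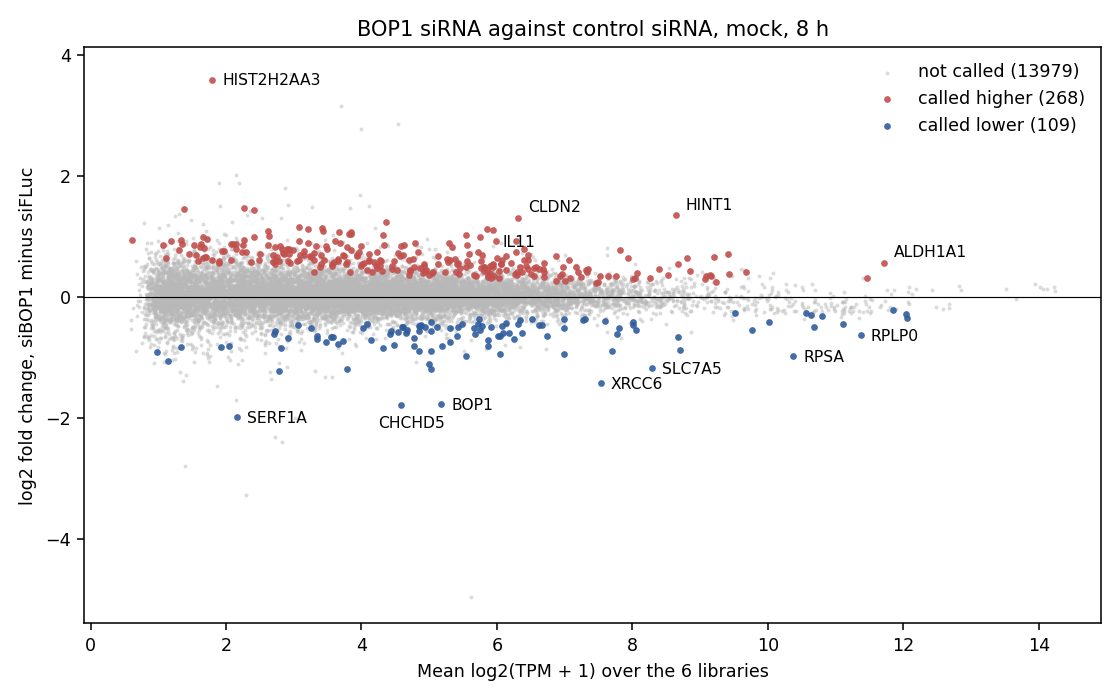
Each point is a gene, with its mean log2(TPM + 1) over the 6 libraries on the x axis and its log2 fold change, siBOP1 minus siFLuc, on the y axis. Red points are the 268 genes called higher, blue points the 109 called lower and grey points the 13979 not called, and the place of HIST2H2AA3 depends on the added 1 TPM because its siFLuc libraries are at 0.

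The 6 libraries were alike in coverage and in identity. Between 14089 and 14509 genes reached 1 TPM in a library, and Pearson r of log2 values within a group was 0.977 to 0.984. Mitochondrially encoded genes held 14.2% to 15.3% of TPM with siBOP1 and 12.8% to 13.6% with siFLuc, without overlap. All 10 markers of the A549 line were present, with EPCAM lowest at 2.17 to 5.48 TPM, and CDKN2A, which this line has lost, was listed at 0 in all 6 libraries. Alveolar type II, fibroblast, endothelial and leukocyte markers were near 0, with SFTPB, SFTPA1 and CD3E listed at 0 throughout. The exceptions were COL1A1 at 5.37 to 19.3 TPM and CD68 at 43.6 to 57.5 TPM. Sequencing depth is unknown, because TPM does not keep it.

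A short word in the 3′ UTR was shared by many of the genes that fell. It is the 7-mer GCCAGTT, which had come up in earlier results of these data, and its sites are shown because the description of the lower genes turns on them. Below are the sites in 3′ UTRs of genes that fell, on GRCh38 with GENCODE 29 transcripts, as RNA strand DNA letters from 5′ to 3′, with the 7-mer in capitals. XRCC6 has its site at chr22:41663869-41663893 on the plus strand, DPM3 at chr1:155139892-155139916 on the minus strand, CDCA7L at chr7:21902059-21902083 on the minus strand and SLC7A5 at chr16:87832915-87832939 on the minus strand. UNG has sites at chr12:109110007-109110031 and chr12:109110413-109110437 on the plus strand. DHX40 has its site at chr17:59607224-59607248 and ATP5F1C at chr10:7807668-7807692, both on the plus strand.
XRCC6: ttgtcctcaGCCAGTTaaaatgtgt
DPM3: cattaaagaGCCAGTTtattttcta
CDCA7L: aaaatatctGCCAGTTattaaaaag
SLC7A5: tgcgcagagGCCAGTTaaagtagat
UNG, copy 1: aacgtatttGCCAGTTacgaagttc
UNG, copy 2: ccagtctctGCCAGTTccactgccc
DHX40: ttctactttGCCAGTTatttcagac
ATP5F1C: gaaaattcaGCCAGTTgattttgtt

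The 7-mer was in the 3′ UTR of 56 of the 99 lower genes that have an annotated one (56.6%), of 9 of 256 higher genes (3.52%) and of 1121 of 11379 genes not called (9.85%). Over all 11734 tested genes with a 3′ UTR the share was 10.1%. Only the strand of the transcript was searched, and copies may overlap neighbouring words. Of all 16384 words of this length, it had the largest excess in the lower genes over those not called, 46.7 percentage points. The next was AGCCAGT, which overlaps it by 6 letters, with 20.1 points. In the higher genes GCCAGTT ranked 15951 of 16384, near the bottom, with a difference of -6.34 points from the genes not called. With the block for the column number within each time the share among the lower genes was 35.9%, and with the libraries numbered 1 and 2 alone it was 43.3%.

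Genes that carry the word had a lower median than genes without it, by little. The median log2 fold change was -0.05 over 1186 genes with 1 or more copies and 0.04 over 10548 genes with none. Genes with 1 copy had a median of -0.05 (1046 genes), those with 2 copies -0.09 (116 genes) and those with 3 or more -0.02 (24 genes). Where an A followed the word the median was -0.12 (253 genes), and elsewhere it was -0.04 (933 genes). The 1270 genes with the word only in the coding sequence had a median of 0.02. Long UTRs hold more words by length alone, so the genes were also split into 4 equal bins of UTR length. From the shortest to the longest bin the median of the carriers was -0.18, -0.10, -0.07 and -0.03, and that of the others 0.03, 0.04, 0.05 and 0.06. The share called lower was 23.9%, 10.4%, 4.36% and 2.80% among carriers and 0.796%, 0.177%, 0.339% and 0.275% among the others. The median of the carriers was thus the lower in all 4 bins, and the difference was largest where the UTR was shortest. The bins held 46, 115, 275 and 750 carriers, so the shortest bin rests on few genes. The median TPM of the carriers was 31.6, 16.3, 17.0 and 13.5, so length and level cannot be told apart here.

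**Figure D2:**
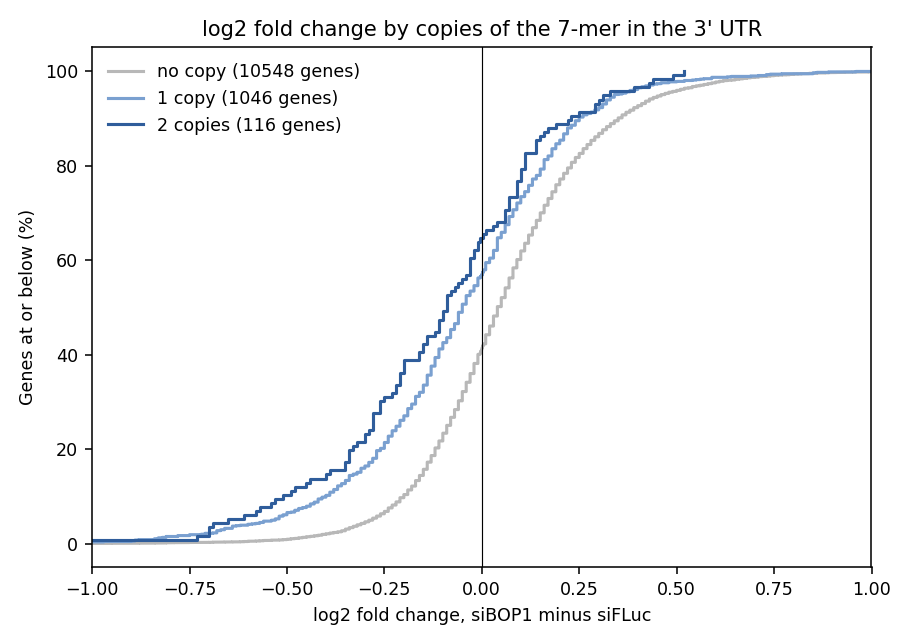
The curves give the percentage of genes at or below each log2 fold change, siBOP1 minus siFLuc, for genes with no copy (10548), 1 copy (1046) or 2 copies (116) of the 7-mer in the 3′ UTR. Both carrier curves lie to the left of the grey curve through most of the range, and values beyond 1 in either direction and the 24 genes with 3 or more copies are not drawn.

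The sequences of the siRNA pool are not in the sources used here, so a match between the word and a guide was not tested. None of 2545 human mature miRNAs in the RefSeq table (GRCh38.p14) had bases 2 to 8 complementary to the whole word. In 2 of them bases 1 to 7 were, and they are shown as RNA with these bases in capitals.
hsa-miR-193a-3p: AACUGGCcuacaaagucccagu
hsa-miR-193b-3p: AACUGGCccucaaagucccgcu

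Not all falls carried the word. Of the 20 largest falls with a 3′ UTR 13 held it, and CHCHD5, RPSA and RTL8A did not. SERF1A did not hold it either, but its sum with the copy SERF1B was not lower, as given below. BOP1 held it once in the coding sequence and not in the 3′ UTR. A coding copy was present in 12% of tested genes with a coding sequence. The 43 lower genes without the word had a median of -0.49, and the 56 with it -0.64.

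The targeted transcript was 18.0, 18.4 and 19.5 TPM in the siBOP1 libraries 1, 2 and 4 and 66.1, 55.9 and 77.3 TPM in the siFLuc libraries. The groups were far apart, and the mean was 28.1% of the control. The log2 fold change was -1.77 (SE 0.18, limma adjusted p 9.8e-06). The exact two-sided permutation p was 0.1, the smallest that 3 against 3 libraries allow. BOP1 lies on chromosome 8 (ENSG00000261236.8, 144262102 to 144291370, minus strand). Its partners did not follow it. PES1, which binds BOP1 directly, was 81.0, 77.4 and 79.9 TPM against 90.8, 81.0 and 82.8 TPM (log2 fold change -0.09, adjusted p 0.793). WDR12, the other partner, was 54.2, 46.2 and 52.3 TPM against 54.2, 41.2 and 54.8 TPM (0.03, adjusted p 0.974), and its sign changed with the scaling and with the library left out. In both partners the groups overlapped.

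CHCHD5, a gene of a small protein of the mitochondrial intermembrane space, fell as far as BOP1. It was 13.3, 9.88 and 12.8 TPM with siBOP1 and 43.1, 40.5 and 47.6 TPM with siFLuc (chromosome 2, 112584240 to 112589275, plus strand). The siBOP1 libraries lay far under all siFLuc libraries. The log2 fold change was -1.79 (SE 0.15, limma adjusted p 1.18e-06). It was the only one of 17 genes of intermembrane space import and its substrates that passed the test, and the median of these 17 was 0.05. With the block 2 members were called higher as well.

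XRCC6, which encodes the Ku70 subunit that binds DNA ends in non-homologous end joining, was 114, 113 and 111 TPM with siBOP1 and 306, 289 and 315 TPM with siFLuc. Its libraries were tight within each group, and the mean was 37.1% of the control (log2 fold change -1.42, SE 0.12, limma adjusted p 1.18e-06). The Ku80 partner XRCC5, looked up after the XRCC6 value was seen, was 172 ± 9.41 against 183 ± 5.40 TPM (SD, n = 3 each; -0.08, adjusted p 0.806). XRCC6 was the only one of 10 end joining genes called. A copy of the gene, the processed pseudogene XRCC6P2, was also called lower, at 2.13 ± 0.159 against 4.49 ± 0.528 TPM (SD, n = 3 each).

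UNG, the uracil glycosylase that opens base excision repair, was 23.3, 20.8 and 18.1 TPM with siBOP1 against 46.5, 40.5 and 50.6 TPM with siFLuc. No siBOP1 library came near the control range (log2 fold change -1.11, SE 0.20, limma adjusted p 0.00383). It was the only one of 12 base excision repair genes called, with a list median of -0.05, and 2 were called lower with the block. DPM3, which anchors the dolichol-phosphate mannose synthase in the endoplasmic reticulum, was 22.8, 21.5 and 17.7 TPM against 45.3, 52.1 and 48.5 TPM (-1.20, SE 0.20, adjusted p 0.00234). The other subunits of that enzyme, DPM1 and DPM2, were at 0.02 and 0.10 (adjusted p 0.983 and 0.821), and DPM3 was the only called member of 13 genes of this pathway.

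SLC7A5, the light chain of a transporter that imports large neutral amino acids, was 247, 201 and 181 TPM with siBOP1 and 526, 407 and 490.0 TPM with siFLuc. The highest siBOP1 library was well under the lowest siFLuc library, and the log2 fold change was -1.18 (SE 0.17, limma adjusted p 0.000667). Its heavy chain SLC3A2, looked up for this reason, was 312 ± 53.8 against 424 ± 47.6 TPM (SD, n = 3 each; -0.45, adjusted p 0.636, and 0.00124 with the block). SLC7A5 also stands in the list of 34 genes of ATF4 and the integrated stress response. There it was the only fall without the block, CEBPB was the only rise (110.0 ± 6.71 against 78.7 ± 1.57 TPM, SD, n = 3 each; 0.48, adjusted p 0.0406), and the median was -0.05. With the block 1 member was called higher and 4 lower. CEBPB lost the threshold in each of the 6 fits that left out 1 library (adjusted p 0.078 to 0.161).

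CDCA7L, a nuclear protein gene related to the MYC target CDCA7, was 10.9, 7.50 and 6.53 TPM against 19.0, 17.3 and 24.2 TPM (log2 fold change -1.20, SE 0.19, limma adjusted p 0.00118). PTK2, the focal adhesion kinase gene, was 34.4, 34.3 and 28.7 TPM against 66.4, 60.7 and 66.5 TPM (-0.97, adjusted p 0.000316). In neither gene did the groups overlap, and both hold a copy of GCCAGTT in the 3′ UTR, as do 10.1% of tested genes with one. RTL8A, a gene derived from a retrotransposon on chromosome X, was 53.4, 44.3 and 42.7 TPM against 94.4, 90.3 and 88.0 TPM (-0.95, adjusted p 0.00039). RTL8C, a near copy beside it named after its value was seen, was at -0.70 (adjusted p 0.0424), and reads may be shared between them. ATP5F1C, the gamma subunit of ATP synthase, was 142, 162 and 150.0 TPM against 257, 286 and 302 TPM (-0.89, SE 0.10, adjusted p 4.93e-05).

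**Figure D3:**
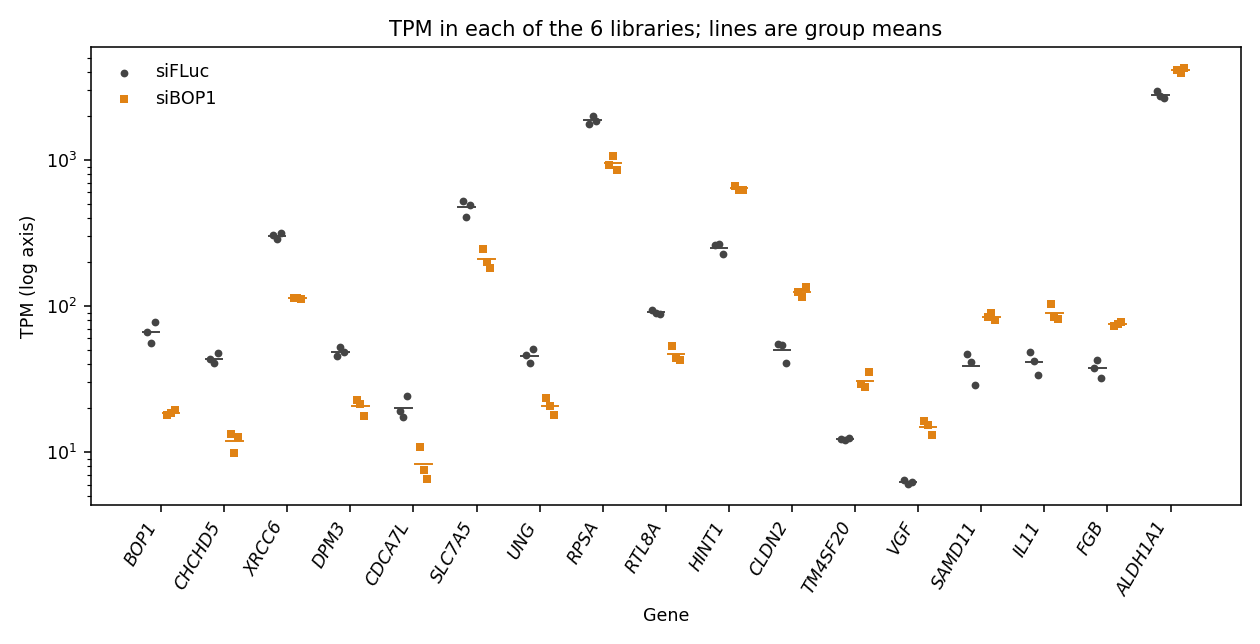
Each symbol is the TPM of a gene in a library on a log axis, with circles for siFLuc, squares for siBOP1 and a line at each group mean. From BOP1 to RTL8A the squares lie below the circles and from HINT1 to ALDH1A1 above them, with no overlap in any of these 17 genes.

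A few ribosomal protein genes fell, RPSA and RPLP0 by the most, and most members of both subunits had differences below 0 that did not pass the test. RPSA, the 40S protein uS2, was 922, 1071 and 856 TPM with siBOP1 and 1752, 1999 and 1849 TPM with siFLuc. Its groups lay far apart against their own spread (log2 fold change -0.98, SE 0.09, limma adjusted p 2.48e-06). RPLP0, a protein of the 60S stalk, was 2123, 2362 and 1917 TPM against 3233, 3611 and 3053 TPM (-0.63, SE 0.09, adjusted p 0.000505). Of the 7 lower ribosomal protein genes, RPLP0 alone holds GCCAGTT in the 3′ UTR of the transcript used. RPS21 was 1419, 1368 and 1352 TPM against 1913, 1976 and 1914 TPM (-0.49, adjusted p 0.00412). In all of these the groups were apart. The other called members, RPL12, RPS16, RPL4 and RPS2, lay between -0.45 and -0.21 (adjusted p 0.013 to 0.0431).

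Of 32 small subunit genes tested, 4 fell and none rose, and of 47 large subunit genes, 3 fell and none rose. All 32 and 46 of the 47 were below 0, with medians of -0.19 and -0.17 against 0.03 over all genes. These medians were -0.08 and -0.10 after quantile normalization, the setting that moved them most, and 27 and 36 were then below 0. With the block 12 and 15 were called lower. RPL12 lost the threshold without the siBOP1 library 4 or the siFLuc library 2 (adjusted p 0.0877 to 0.0887). RPS16, RPL4 and RPS2 each lost it in 5 of the 6 fits without a library, RPS16 and RPL4 in all but that without the siFLuc library 1 and RPS2 in all but that without the siBOP1 library 2 (adjusted p 0.052 to 0.22). They also lost it after median-of-ratios rescaling (0.144 to 0.15), as did RPL12 (0.0677). RPL4 and RPS2 lost it after quantile normalization (0.188 and 0.392), and with only the 6 libraries in the fit RPL12, RPS16, RPL4 and RPS2 were not called (0.0916 to 0.238). Ribosomal protein genes have many processed copies, and how the reads were shared out is not given in the sources used here. In these libraries RPSAP58 and RPSAP54, copies of RPSA, and RPLP0P6, a copy of RPLP0, were called lower along with their parents. RPSA and RPSAP58 together summed to 1041 ± 123 against 2043 ± 136 TPM (SD, n = 3 each).

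Few factors that make ribosomes passed the test, and most of the others had small differences below 0. Of 17 genes of the RNA polymerase I machinery none was called, 14 were below 0, and the median was -0.16. The member with the largest difference was POLR1G at -0.46 (19.4, 18.0 and 18.3 TPM against 26.6, 21.2 and 31.0 TPM, adjusted p 0.232). Of 59 large subunit assembly factors, 2 fell, BOP1 and DDX18, and the median was -0.12. DDX18, a nucleolar RNA helicase, was 38.5, 43.3 and 41.9 TPM against 59.5, 60.9 and 57.5 TPM (-0.52, adjusted p 0.016). Of 59 small subunit assembly factors only PDCD11, the human counterpart of yeast Rrp5, was called, at 13.2, 14.0 and 14.6 TPM against 28.3, 20.9 and 28.9 TPM (-0.84, adjusted p 0.0289), and the median was -0.15. Both DDX18 and PDCD11 hold a copy of GCCAGTT in the 3′ UTR. Counting them, 3 of the 59 large and 6 of the 59 small subunit factors do. DDX18 lost the threshold without the siBOP1 library 1 or 4 or the siFLuc library 2 (adjusted p 0.0596 to 0.0813). PDCD11 lost it in all such fits except that without the siFLuc library 2 (0.083 to 0.123). With the block 2, 7 and 5 genes of the 3 lists were called lower and none higher. In the pairs of libraries numbered 1, 2 and 4 the median of the polymerase list was -0.14, -0.06 and -0.31. It was -0.13, -0.03 and -0.18 for the large and -0.12, -0.07 and -0.20 for the small subunit factors. Each list was nearest 0 in the pair numbered 2.

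Of 46 translation factors, EIF4G2 alone was called. It encodes a relative of the scaffold eIF4G that supports initiation without the cap-binding protein, and it was 323, 337 and 309 TPM against 505, 510.0 and 529 TPM (log2 fold change -0.67, SE 0.09, limma adjusted p 0.000137). It too holds a copy of GCCAGTT in the 3′ UTR, 1 of 5 such members among 45 with an annotated one. The list median was -0.13, and 9 members were called lower with the block. Long noncoding RNAs that host small nucleolar RNAs in their introns had the lowest median of all 34 lists, -0.31 over 17 genes, of which 16 were below 0. GAS5 was 214, 236 and 211 TPM against 302, 352 and 312 TPM (-0.54, adjusted p 0.00455). SNHG8 was 106, 105 and 104 TPM against 152, 153 and 148 TPM (-0.52, adjusted p 0.00349). In both the groups were apart by more than their spread. SNHG29 was at -0.26 (adjusted p 0.0406) and lost the threshold in each fit that left out 1 library (0.0548 to 0.202) and after median-of-ratios rescaling (0.132). Its adjusted p was 0.175 with only the 6 libraries in the fit. With the block 9 of the 17 were called lower.

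**Figure D4:**
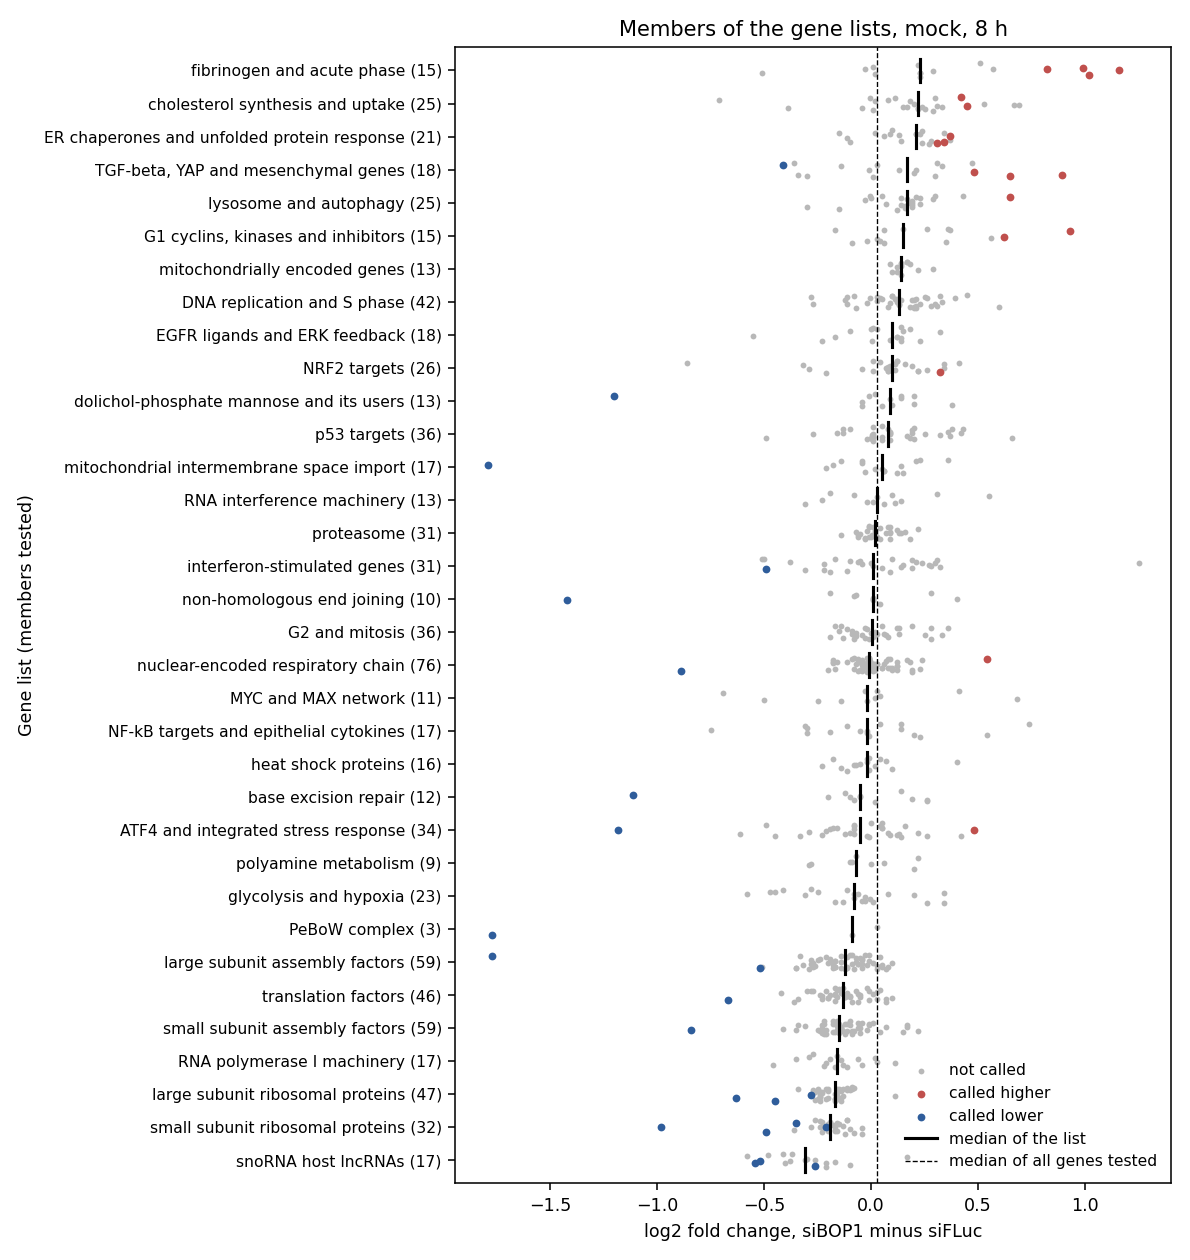
Each point is a tested member of a gene list, placed by its log2 fold change, siBOP1 minus siFLuc, with lists ordered by median and the number of members tested in brackets. Black bars are list medians, the dashed line is the median of all genes (0.03), and the 5 lists with the lowest medians are those of ribosomal proteins, ribosome production and small nucleolar RNA hosts.

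Genes that respond to p53 did not pass the test without the block. Of 36 known targets none was called, 29 were above 0, and the median was 0.08. SESN1, a stress-induced regulator of growth signalling, had the largest difference, at 6.59, 6.25 and 9.06 TPM against 4.02, 3.71 and 4.93 TPM (log2 fold change 0.66, limma adjusted p 0.299). With the block 5 targets were called higher and 1 lower, SESN1 among the higher (adjusted p 0.0138). The median fell to 0.05 and 0.04 after median-of-ratios rescaling and quantile normalization.

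Of 21 chaperones of the endoplasmic reticulum and genes of the unfolded protein response 3 rose and none fell, with a median of 0.21, the same to within 0.01 in the 3 pairs of libraries with equal numbers (0.21, 0.22 and 0.22). HSP90B1, the lumenal HSP90, was 638, 660.0 and 637 TPM against 536, 490.0 and 474 TPM (0.37, limma adjusted p 0.00729). Its groups did not overlap, and with only the 6 libraries in the fit its adjusted p was 0.0705. CANX and PDIA6, a lectin chaperone and a disulfide isomerase, were at 0.34 and 0.31 (adjusted p 0.0431 and 0.0356). CANX lost the threshold in each fit without a library and PDIA6 in all but that without the siFLuc library 1 (adjusted p 0.0628 to 0.172). With the block 9 members were called higher, and with only the 6 libraries in the fit none was. Of 16 heat shock proteins of the cytosol and mitochondrion none was called, and the largest difference was that of HSPB1 (0.40, adjusted p 0.257). It was the 1 member called higher with the block (0.00856).

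Genes of the cell cycle gave a mixed account. None of 42 genes of DNA replication was called, 33 were above 0, and the median was 0.13. Its value by pair of equal numbers was 0.16, 0.31 and -0.06, so the libraries did not share a direction. POLA2 had the largest difference (0.60, limma adjusted p 0.204, and 0.0382 with the block), and 4 members were called higher with the block. None of 36 genes of G2 and mitosis was called. Of 15 G1 cyclins, kinases and inhibitors, CDKN1C and CCND1 rose, and 5 were called higher with the block. CDKN1C, the kinase inhibitor p57, was low throughout, at 2.05, 2.23 and 2.17 TPM against 0.372, 0.838 and 0.786 TPM (0.93, adjusted p 0.00413, and 0.0815 with only the 6 libraries in the fit). Every siFLuc library was below 1 TPM, so CDKN1C passed the filter only through its siBOP1 libraries, and its call is not independent of that filter. CCND1, cyclin D1, was 109, 99.2 and 105 TPM against 69.4, 58.0 and 75.7 TPM (0.62, adjusted p 0.0127). CCND1 lost the threshold without the siBOP1 library 1 or 4 or the siFLuc library 2 (0.0582 to 0.0864). Fewer cells of a kind and less of an RNA in each cell cannot be told apart in these bulk samples.

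Among the rises HINT1, a purine nucleoside phosphoramidase gene, stood out for its level. It was 662, 625 and 626 TPM with siBOP1 and 261, 265 and 226 TPM with siFLuc (chromosome 5, 131159027 to 131171735, minus strand). Every siBOP1 library was far above every siFLuc library, and the log2 fold change was 1.35 (SE 0.18, limma adjusted p 0.000316). ALDH1A1, a retinal dehydrogenase that marks this line, was 4104, 3939 and 4241 TPM against 2953, 2725 and 2669 TPM (0.56, SE 0.08, adjusted p 0.000305). It was the most abundant gene that rose. AKR1B10, an aldo-keto reductase and the only called member of 26 NRF2 targets, was 3046, 3183 and 3273 TPM against 2622, 2606 and 2384 TPM (0.32, adjusted p 0.0282). With the block 6 of the 26 were called higher and 3 lower. AKR1B10 lost the threshold in all fits without a library except that without the siFLuc library 1 (0.0533 to 0.135), and after median-of-ratios rescaling (0.134). Its adjusted p was 0.106 with only the 6 libraries in the fit.

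Junction and membrane protein genes were among the single genes named by size of change or from a list. CLDN2, a pore-forming claudin of the tight junction, was 124, 115 and 135 TPM with siBOP1 and 55.0, 54.5 and 40.9 TPM with siFLuc (log2 fold change 1.31, limma adjusted p 0.0192). TM4SF20, a membrane protein gene, was 29.2, 28.0 and 35.1 TPM against 12.3, 12.2 and 12.5 TPM (1.24, adjusted p 0.00092). In both the lowest siBOP1 library was at more than 2 times the highest siFLuc library. CDH1, the adhesion protein E-cadherin, was 52.9, 50.3 and 53.8 TPM against 34.5, 26.2 and 23.8 TPM (0.89, adjusted p 0.000593). VIM, the mesenchymal filament vimentin, was 941, 925 and 841 TPM against 1188, 1183 and 1213 TPM (-0.41, adjusted p 0.00935). CDH1 and VIM thus changed in opposite directions, while ITGAV, an integrin subunit gene of the same list of 18 TGF-beta, YAP and mesenchymal genes, rose (0.48, adjusted p 0.0495). The epithelial keratin genes, looked up after their values were seen, did not pass the test. KRT18 was 1978, 1785 and 1884 TPM against 2320, 1989 and 2303 TPM (-0.23, adjusted p 0.152), KRT19 was at -0.40 (0.14), KRT7 at -0.22 (0.135) and KRT8 at -0.17 (0.425). With the block KRT18, KRT19 and KRT7 were called lower (0.0103, 0.034 and 0.0207). CLDN2 lost the threshold without the siBOP1 library 1 or 4 or the siFLuc library 2 or 4 (0.0503 to 0.0978), and VIM without the siBOP1 library 4 (0.0698). ITGAV lost it in every fit without a library (0.0557 to 0.211). VIM and ITGAV were not called with only the 6 libraries in the fit (0.0523 and 0.0873).

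All 3 fibrinogen chains, secreted clotting proteins, rose. FGB was 72.7, 75.6 and 77.3 TPM against 37.8, 42.7 and 32.2 TPM (log2 fold change 0.99, SE 0.15, limma adjusted p 0.000904). FGA was 71.8, 65.4 and 59.2 TPM against 38.9, 38.9 and 20.8 TPM (1.02, adjusted p 0.00622, and 0.0911 with only the 6 libraries in the fit). FGG was 57.2, 51.2 and 50.8 TPM against 33.4, 34.4 and 22.4 TPM (0.82, adjusted p 0.0138). In all 3 the siFLuc library 4 was the lowest, and no siBOP1 library reached into the control range. AMBP, the precursor of alpha-1-microglobulin and bikunin, was 10.5, 12.1 and 12.3 TPM against 4.41, 4.72 and 4.79 TPM (1.16, adjusted p 0.00125). These were the 4 called of 15 acute phase genes tested, whose median was 0.23, and 6 were called higher with the block. FGG lost the threshold without the siBOP1 library 1 or the siFLuc library 4 (0.0636 to 0.0945). It was also not called with only the 6 libraries in the fit (0.0674) or with the libraries numbered 1 and 2 alone (0.0515).

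IL11, a cytokine of the interleukin-6 family, was 103, 84.6 and 82.0 TPM against 48.2, 42.0 and 33.8 TPM (log2 fold change 1.11, SE 0.16, limma adjusted p 0.000469). VGF, the precursor of secreted neuropeptides, was 16.3, 15.4 and 13.2 TPM against 6.43, 6.05 and 6.22 TPM (1.14, adjusted p 0.00178). SAMD11, a nuclear protein gene, was 84.0, 88.9 and 80.5 TPM against 46.6, 41.7 and 28.6 TPM (1.12, adjusted p 0.00303). Each of these had all siBOP1 libraries above all siFLuc libraries. FBXO2, a ubiquitin ligase subunit that binds glycans, was at 1.13 (12.7 ± 1.00 against 5.25 ± 0.139 TPM, SD, n = 3 each, adjusted p 0.00252). CD82, a tetraspanin, was at 1.09 (8.03 ± 1.23 against 3.24 ± 0.743 TPM, SD, n = 3 each, adjusted p 0.0185). PRODH2, a hydroxyproline dehydrogenase gene, was 5.24, 7.19 and 12.2 TPM against 2.19, 2.02 and 2.47 TPM (1.44, adjusted p 0.0103), with the siBOP1 library 4 far above the others. PRODH2 lost the threshold without that library (0.0814), and CD82 without the siBOP1 library 1 or 4 or the siFLuc library 4 (0.0811 to 0.101). The adjusted p of PRODH2 was 0.0556 with only the 6 libraries in the fit. That of CD82 was 0.0772 with the libraries numbered 1 and 2 alone.

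Of the lysosomal and sterol genes listed, 3 passed the test. CTSD, the lysosomal protease cathepsin D, was 572, 543 and 560.0 TPM against 406, 336 and 328 TPM (log2 fold change 0.65, SE 0.10, limma adjusted p 0.000641). It was the only called member of 25 lysosome and autophagy genes, whose median was 0.17 and whose members ran from -0.30 to 0.65, and 3 were called higher and 1 lower with the block. SQLE and MSMO1, enzymes of cholesterol synthesis, were 168, 171 and 166 TPM against 133, 116 and 130.0 TPM and 186, 185 and 184 TPM against 142, 120.0 and 145 TPM (0.42 and 0.45, adjusted p 0.0177 and 0.0424). Both were above the whole control range. The list of 25 genes had a median of 0.22 with members from -0.71 to 0.69, and 7 were called higher and 1 lower with the block. SQLE lost the threshold in all fits without a library except those without the siFLuc library 1 or 4, and MSMO1 in every such fit (0.0604 to 0.2). Neither was called with only the 6 libraries in the fit (0.0644 and 0.0699).

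Genes encoded by the mitochondrial genome were all above 0 but none was called, with a median of 0.14 over 13 genes, and 3 of the 13 were below 0 after quantile normalization. The largest difference was that of MT-ND6, which the siBOP1 library 1 decided. It was 308, 103 and 129 TPM against 181, 106 and 118 TPM (log2 fold change 0.29, limma adjusted p 0.944), and the change was -0.18 without that library. Of 76 nuclear genes of the respiratory chain ATP5F1C fell, as given above, and NDUFA1, a complex I subunit, rose (454, 477 and 555 TPM against 318, 349 and 351 TPM, 0.54, adjusted p 0.0451). NDUFA1 lost the threshold in every fit without a library (0.0717 to 0.204) and after median-of-ratios rescaling (0.146). The median of the 76 was -0.01, and 3 were called higher and 1 lower with the block. No member was called in the lists of glycolysis and hypoxia (23 genes, median -0.08), polyamine metabolism (9, -0.07), the proteasome (31, 0.02), ERK feedback (18, 0.10) or the MYC and MAX network (11, -0.02). The members with the largest difference in these were PDK1 (-0.58, adjusted p 0.601), SMS (-0.29, 0.123), PSMD11 (0.22, 0.545), HBEGF (-0.55, 0.799) and MXI1 (-0.69, 0.188). PSMD11, which was above 0, holds a copy of GCCAGTT in the 3′ UTR. With the block the glycolysis list had 2 genes called higher and 3 lower, the polyamine list 1 and 1, the proteasome list 1 higher and the MYC and MAX list 2 lower, among them PDK1, SMS and MXI1 (0.0266, 0.0382 and 0.0269). ERK feedback had none.

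Foreign double-stranded RNA such as an siRNA can set off interferon and NF-kB responses, so genes of both were listed. Both groups received an siRNA, so a response shared by them would not show in this comparison and was not tested. Of 40 interferon-stimulated genes 31 reached the filter, with a median of 0.01 and members from -0.51 to 1.25. UBE2L6, the conjugating enzyme of ISG15, was the only member called without the block and fell, from 37.0, 34.0 and 34.5 TPM with siFLuc to 25.7, 22.5 and 26.2 TPM with siBOP1 (log2 fold change -0.49, limma adjusted p 0.0235). With the block 2 of the 31 were called higher and 3 lower, and with the libraries numbered 1 and 2 alone 5 were called lower. UBE2L6 holds 2 copies of GCCAGTT in its 3′ UTR, where 3 of the 31 members hold the word. It lost the threshold in every fit without a library (0.057 to 0.113) and with only the 6 libraries in the fit (0.0745). No gene was called among 17 NF-kB targets and cytokines, with CCL20 the farthest from 0 (-0.75, adjusted p 0.485), and 1 was called higher and 1 lower with the block. None was called, with or without the block, among 13 genes of RNA interference, with AGO4 the farthest (0.55, adjusted p 0.474).

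Some calls stood at loci with a near-identical copy, and the values of the copies are given together. HIST2H2AA3, a histone H2A gene, was 11.4, 15.4 and 7.77 TPM with siBOP1 and listed at 0 in all 3 siFLuc libraries, so no fold is given (limma adjusted p 0.0176). Its neighbour HIST2H2AA4, looked up for this reason, was 6.56, 2.52 and 14.4 TPM with siBOP1 and 16.9, 19.7 and 16.6 TPM with siFLuc. The sum of both was 17.9, 17.9 and 22.2 TPM against 16.9, 19.7 and 16.6 TPM, and these ranges overlapped. SERF1A was 1.88, 1.91 and 0.355 TPM against 7.53, 8.36 and 7.85 TPM (-1.99, adjusted p 0.0457), and its copy SERF1B was 70.8, 84.4 and 68.6 TPM against 54.3, 63.5 and 55.3 TPM. Their sum, at 76 ± 9.17 against 65.6 ± 5.45 TPM (SD, n = 3 each), was not lower with siBOP1. SERF1A lost the threshold in every fit without a library (0.0814 to 0.215). HIST2H2AA3 lost it without the siBOP1 library 1 or 2 or the siFLuc library 2 or 4 (0.0607 to 0.0781). HIST2H2AA3 also passed the filter only through its siBOP1 libraries, so its call is not independent of that filter.

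PKD1P5, a pseudogene copy of the polycystin gene PKD1, was 9.35, 6.08 and 6.11 TPM against 2.48, 1.36 and 1.97 TPM (log2 fold change 1.47, SE 0.26, limma adjusted p 0.00383). Its groups did not overlap, and its reads cannot be told apart with certainty from those of the other PKD1 copies. Of the 109 lower genes, 98 were protein-coding and 7 were pseudogenes, and of the 268 higher genes 258 were protein-coding and 1 was a pseudogene. DHX40P1, XRCC6P2 and YWHAZP10 were lower at no more than 5.04 TPM in any library, as were their parents DHX40 (23 ± 1.83 against 43.4 ± 0.726 TPM), XRCC6 and YWHAZ (307 ± 17.1 against 566 ± 12.3 TPM; SD, n = 3 each). DHX40P1 passed the filter only through its siFLuc libraries, with every siBOP1 library below 1 TPM.

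The same siRNAs were compared in 18 other libraries, at 12 h and with interferon beta, which share no library with the comparison at 8 h in mock cells. The spread used in the tests was estimated over all 24 libraries, so the calls of these comparisons are not independent. Of the 268 higher genes 264 were above 0 at 12 h in mock cells, 265 at 8 h with interferon beta and 262 at 12 h with interferon beta. Of the 109 lower genes 109, 107 and 108 were below 0. The higher genes had medians of 0.43, 0.49 and 0.39 in these comparisons, and the lower genes -0.53, -0.53 and -0.44. Called in the same direction were 111, 137 and 59 of the higher genes, where 1.14%, 1.43% and 0.495% of all genes were called higher. Of the lower genes 76, 68 and 35 were called, where 0.836%, 0.878% and 0.293% of all genes were called lower. In all 4 comparisons 40 higher and 32 lower genes were called. Values at 12 h can be set beside those at 8 h gene by gene. HINT1 was at 1.56, CHCHD5 at -1.55, XRCC6 at -1.49, RPSA at -0.97 and IL11 at 0.84.

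No gene passed the test of the difference between the siRNA effects at 8 h and 12 h in mock cells (limma interaction, lowest adjusted p 0.339, with 228 genes at an unadjusted p under 0.05). With the block the count was 0 as well, with 758 genes at an unadjusted p under 0.05. None passed for the difference between mock and interferon beta at 8 h (275 genes at an unadjusted p under 0.05, and 715 with the block). With a filter that kept any gene with values above 0 in 3 of the 6 libraries, 2 and 3 genes passed. Of the 4 higher genes below 0 at 12 h, PKD1P5 (1.47 at 8 h, -0.55 at 12 h) and HIST2H2AA3 (-0.67 at 12 h) have near-identical copies. The others, MOV10 and LRP11, were named after their values were seen, at -0.16 and -0.0034 at 12 h. Of the higher genes 223 of 268 had the larger change at 8 h, and of the lower genes 71 of 109. The genes were chosen on their values at 8 h, so nothing is read from these counts.

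**Figure D5:**
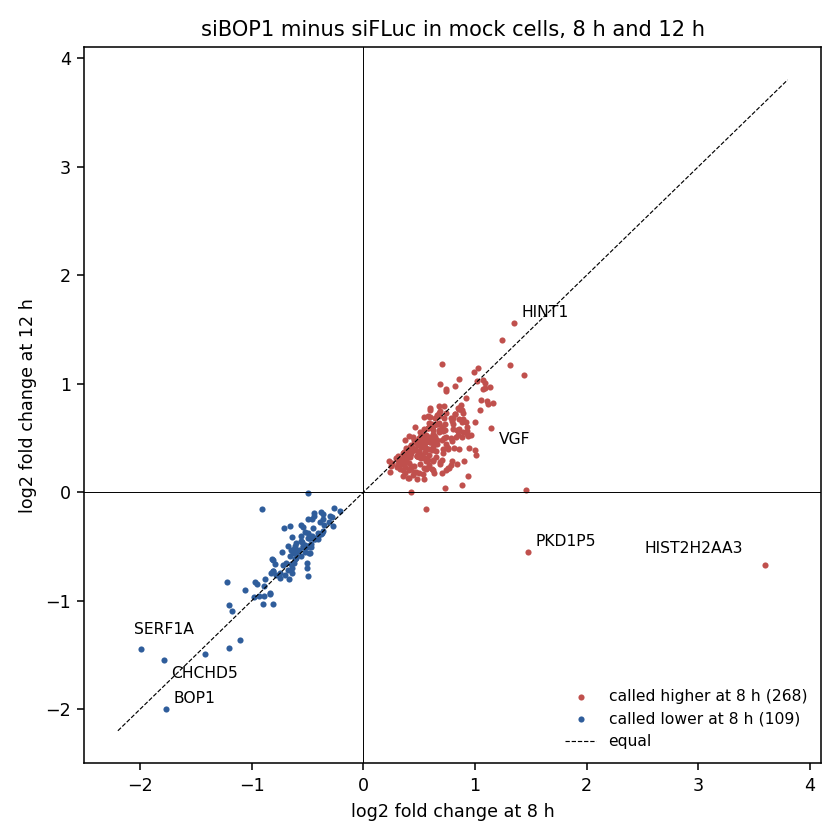
Each point is a gene called at 8 h, with its log2 fold change, siBOP1 minus siFLuc, in mock cells at 8 h on the x axis and at 12 h, in separate libraries, on the y axis. All 109 lower genes and 264 of the 268 higher genes keep their sign, and PKD1P5 and HIST2H2AA3 lie farthest from the dashed line of equal change.

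The series asks how transcripts rich in non-optimal codons are translated, and the third base of a codon carries most of the difference in GC between synonymous codons. Across 11901 genes Spearman's rho between the log2 fold change and the GC share at the third base was 0.14, and it was 0.15, 0.07 and 0.12 in the pairs of libraries numbered 1, 2 and 4. Genes are not independent replicates, and the points share their libraries. Over 4 equal bins from the lowest to the highest GC share the median change was 0.01, 0.02, 0.05 and 0.08. The share of genes called higher was 1.08%, 1.92%, 2.08% and 3.60%, while the share called lower was 0.806%, 0.908%, 0.807% and 0.807%. The higher genes had a median GC share of 69.5%, the lower genes 58.0% and all genes 58.3%. The rises were therefore more frequent among genes rich in GC at the third base, and the falls showed no such gradient. Abundance of RNA was measured here and not its translation.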

How the data were processed

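Polyadenylated RNA of A549 cells was measured in 24 libraries, and 6 of them make the comparison. The deposited table holds TPM values per gene, scaled by the authors to 1000000 per column. Aligner, quantification tool, genome build and annotation are not given in the sources used here. Of the columns, 16 matched a labelled replicate by number. The 8 columns numbered 4 matched their group only, because the labels number replicates to 3. No columns were left over.

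The test ran on log2(TPM + 1), which understates changes of low genes, for genes at 1 TPM or more in 3 of the 6 columns. A gene could pass this filter through 1 group alone. It used limma 3.58.1 (R 4.3.3) with empirical Bayes moderation and a mean-variance trend. The fit had 1 mean for each of 8 groups over all 24 libraries, and the adjustment ran over 14356 genes with a threshold of 0.05. The procedure was tested on simulated data in which the libraries varied independently. That setting leaves out the pairing of libraries given below. Tables used Python 3.11.15, pandas 2.3.3, NumPy 2.4.6 and SciPy 1.17.1. Deviations from group means of equally numbered libraries correlated at 0.225, 0.245 and 0.349. The numbers were therefore taken as pairing the libraries within each time in the blocked fit. The main fit left this pairing out, so its calls hold for that model only. The blocked count is printed beside each list where it differs by over 1.5 times.

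Positions and UTRs came from GENCODE 29 on GRCh38, with 1 transcript per gene, that with the longest coding sequence. It held 58502 of the 60609 row IDs, 41779 in the same version. Genes were named by a rule: the PeBoW complex, the 12 largest rises and falls among called genes without overlap and with a mean of at least 5 TPM in the higher group, the 6 most abundant called genes, and up to 4 called members of each of 34 lists or, with none called, the member with the largest change. Up to 3 genes each way per interaction were to be named, and none was called. Members, lists, rule and the 7-mer were chosen with earlier results of these data known. A few genes that the rule or the marker lists name are not reported here.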

Additional observations from a re-analysis of the deposited data

How the results depend on the processing

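The alternatives were pseudocounts of 0.1 and 0.5, other filters, 3 rescalings, eBayes without trend, fewer libraries, the union of UTRs and the replicate block. With a replicate block for the column number within each time, 991 genes were higher and 444 lower, and 35.9% of the lower genes held the 7-mer. With only the 6 libraries compared, 65 were higher and 49 lower. With the libraries numbered 1 and 2 only, 167 were lower and 43.3% of the lower genes held the 7-mer. Quantile normalization gave 201 lower genes. Leaving out a library gave 94 to 208 higher and 53 to 71 lower genes. The count of rises of at least 1 was 43 with a pseudocount of 0.1 and 14 to 29 without a library, the lowest without the siFLuc library 4. The cause of these shifts was not tested. The interactions called 2 genes (time) and 3 genes (interferon beta) with a filter on values above 0. The median of all genes was -0.0037 after median-of-ratios rescaling, -0.01 after quantile normalization, 0.05 without mitochondrially encoded genes and 0.01 to 0.06 without a library. WDR12 turned to -0.01 and -0.0044 after median-of-ratios rescaling and quantile normalization, and to -0.02 and -0.10 without the siBOP1 library 1 or the siFLuc library 2, in a range up to 0.10. MT-ND6 ranged from -0.18 without the siBOP1 library 1 to 0.60 without the siBOP1 library 2. Of the 57 named genes called, all 57 were called with the block, 38 with only the 6 libraries and 29 in every setting that tested them, and 25 lost the threshold without some library. Of the 15 not called, 6 were called with the block. The medians of 5 of 34 lists changed sign after median-of-ratios rescaling or quantile normalization, those of G2 and mitosis, end joining, RNA interference, interferon-stimulated genes and the proteasome. Depth is unknown, so the precision of low values cannot be given.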
